A study of Mus musculus with 2 samples.

Results

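Growth factors that act on myeloid and mast cells, and their receptors, were examined in single-cell RNA libraries of mouse nasal tissue. The set holds 9 genes, taken by symbol from the deposited gene tables: the ligands Csf1, Il34, Kitl, Csf3 and Flt3l and the receptors Csf1r, Kit, Csf3r and Flt3. All 9 were found among the 56953 genes of the tables, each with 1 identifier (for example Csf1 as ENSMUSG00000014599 and Flt3l as ENSMUSG00000110206). The tissue is labelled olfactory epithelium and came from 2 male wildtype C57BL/6J mice, with no treatment; 1 library was made per mouse, both mice form 1 group, and their age is not given in the labels. The tissue was digested with enzymes, passed through a sieve, treated to lyse red blood cells, and captured in droplets on the BMKMANU DG1000 platform. The comparisons below are therefore between cell classes within these animals.

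Each receptor of the set is the entry point of a lineage. Csf1r, a receptor tyrosine kinase of macrophages and monocytes, is bound by both Csf1 (M-CSF) and interleukin 34. Kit, the receptor of stem cell factor (Kitl), is needed for mast cell survival and marks some innate lymphocytes, Csf3r (the G-CSF receptor) drives the production and release of neutrophils, and Flt3 acts in dendritic cell development. The ligands are made largely by stromal, vascular and epithelial cells, so that the pairs are usually read across cell types.

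The libraries held 95844802 UMIs in mouse 1 and 86049057 in mouse 2. Cells were barcodes with at least 1000 UMIs that passed the filters: 12537 cells with a median of 3884 UMIs in mouse 1 and 8930 cells with a median of 5241 in mouse 2. The 21467 cells fell into 25 clusters, of which 21 could be named, in 14 classes. Fibroblast-like cells (4465 in mouse 1 and 3729 in mouse 2) and chondrocyte-like cells (5091 and 2981) made up most of both libraries. The label could not be matched to a class: no cluster carried the markers of olfactory neurons or of their supporting cells, and Omp, the defining gene of mature olfactory neurons, had 15 and 41 UMIs over all cells. The libraries share 387 cell barcodes, 189 of them in the same class in both. Levels and comparisons of the classes that kept at least 20 cells in each mouse were also computed without these cells. Values for single clusters, shares of cells or UMIs, and correlations were not. Neutrophil-like cells stood apart between the animals, with 154 in mouse 1 and 21 in mouse 2, and 10 of these 21 formed an early cluster that mouse 1 lacked.

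Levels (CPM) are UMIs of a gene over all cells of a class in one mouse, scaled to a class total of 1000000 UMIs, given first for mouse 1 and then for mouse 2, and are compared between classes within a gene. They count transcripts, so that fewer cells with a transcript and less of it per cell are not separated unless a share of cells is given. Intervals are 95% Poisson intervals for levels and cover counting error only. As a measure of RNA outside cells, barcodes with at most 50 UMIs were summed; Csf1 stood at 143 and 54.4 CPM there, Kitl at 38.2 and 20.5, Il34 at 22.6 and 17.6, Csf3 at 16.6 and 8.57, Csf1r at 14.2 and 16.5, Csf3r at 11.6 and 4.29, Flt3l at 8.69 and 8.35, Kit at 6.58 and 3.16, and Flt3 at 1.32 and 1.13. A class whose level is near these values cannot be told from free RNA by its level alone.

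Csf1, the main growth factor of macrophages, was spread over connective tissue and had its highest level in mast-like cells. Fibroblast-like cells held it at 247 CPM (interval 239 to 255) in mouse 1 and 124 CPM (119 to 130) in mouse 2, and gave 36.7% and 49.8% of all Csf1 UMIs found in cells. Tenocyte-like cells stood at 203 and 95.5 CPM, and chondrocyte-like cells at 116 and 36.5. Because they are so many and hold more RNA, chondrocyte-like cells still gave 46.0% and 34.5% of the Csf1 UMIs. Their level lay under that of free RNA in both mice (143 and 54.4 CPM). Macrophage-like cells, the lowest of the 13 classes in mean level, lay further under it. A UMI of Csf1 was found in 3 of 182 and 9 of 203 macrophage-like cells. Among chondrocyte-like cells, which are deeper, these were 1264 of 5091 and 501 of 2981. The part of free RNA in the Csf1 UMIs of chondrocyte-like cells was not tested. Only 3 of 13 classes stood above free RNA in both mice. Levels in mouse 1 were the higher ones in 11 of the 13 classes with at least 20 cells in each mouse, and also in the barcodes of free RNA. Whether free RNA has a part in that difference was not tested.

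In mast-like cells Csf1 reached 613 CPM (514 to 726, 134 UMIs) and 290.5 CPM (193 to 420, 28 UMIs), above every other named class in mouse 1 and in mouse 2. The mast-like cluster of the re-clustered immune cells (i4, led by Tpsb2, Mcpt4 and Cpa3) held 674 and 253 CPM. The mixed cluster i12, led by stromal genes such as Postn, held 290.3 and 197 CPM. Summed fibroblast markers stood at 11595 and 13383 CPM in the class and at 3897 and 1448 CPM in i4; their part in the Csf1 level was not tested. Of the classes, mast-like cells also had in both mice the highest summed level of a list of 10 genes known to respond to tissue dissociation, 32785 and 37453 CPM against 6365 and 4475 in fibroblast-like cells; its part in the Csf1 level was not tested. Neutrophil-like cells held Csf1 at 333 CPM in mouse 1 and 20.6 in mouse 2, where only 4 UMIs were counted. In mouse 1 most of it came from the cluster i7, led by Mreg and Hcar2, with 680 CPM, against 127 CPM in the mature cluster i1, led by Retnlg and Cxcr2. Blood endothelial-like cells stood at 127 and 86.1 CPM, pericyte or smooth muscle-like cells at 160.4 and 42.6, and lymphatic endothelial-like cells at 33.3 and 7.74. Macrophage-like cells, which bear the receptor, held 6.49 and 15.5 CPM, well under the level of free RNA in both mice.

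Il34, the other ligand of Csf1r, had its highest level in another class. Pericyte or smooth muscle-like cells, named from Rgs5, Acta2, Myh11, Tagln and Notch3, held 405 CPM (350 to 467) and 516 CPM (463 to 573), with a mean of 460 ± 78.2 (SD, n = 2 mice). A UMI of Il34 was found in 47.5% and 59.0% of these cells, against 1 of 135 and 0 of 65 T or NK-like cells. Median depths were 2955 and 3953 UMIs in the former and 2968 and 2978 in the latter. After each cell was thinned to 1000 UMIs the shares were 25.9% and 30.4%. Other classes lay between: before thinning, 25 of 281 and 22 of 117 blood endothelial-like cells had a UMI of Il34. Among Schwann-like cells these were 27 of 178 and 17 of 108. Blood endothelial-like cells followed with 35.7 and 118 CPM and Schwann-like cells with 79.9 and 70.1, and the order of these classes differed between the mice. Tenocyte-like cells (38.3 and 31.2 CPM) stood above the level of free RNA, chondrocyte-like cells (29.4 and 20.3) close to it and fibroblast-like cells (15.9 and 14.8) under it. Being so many, chondrocyte-like cells still gave 61.3% and 46.6% of the Il34 UMIs, against 10.2% and 22.1% from pericyte or smooth muscle-like cells. In an older annotation of the genome the antisense genes Gm15894 and Gm15895 overlap Il34. Also on the opposite strand, the protein-coding gene Hmgxb3 overlaps Csf1r and the antisense gene Gm26597 overlaps Flt3. No source used here states whether the counting used strand.

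**Figure D1:**
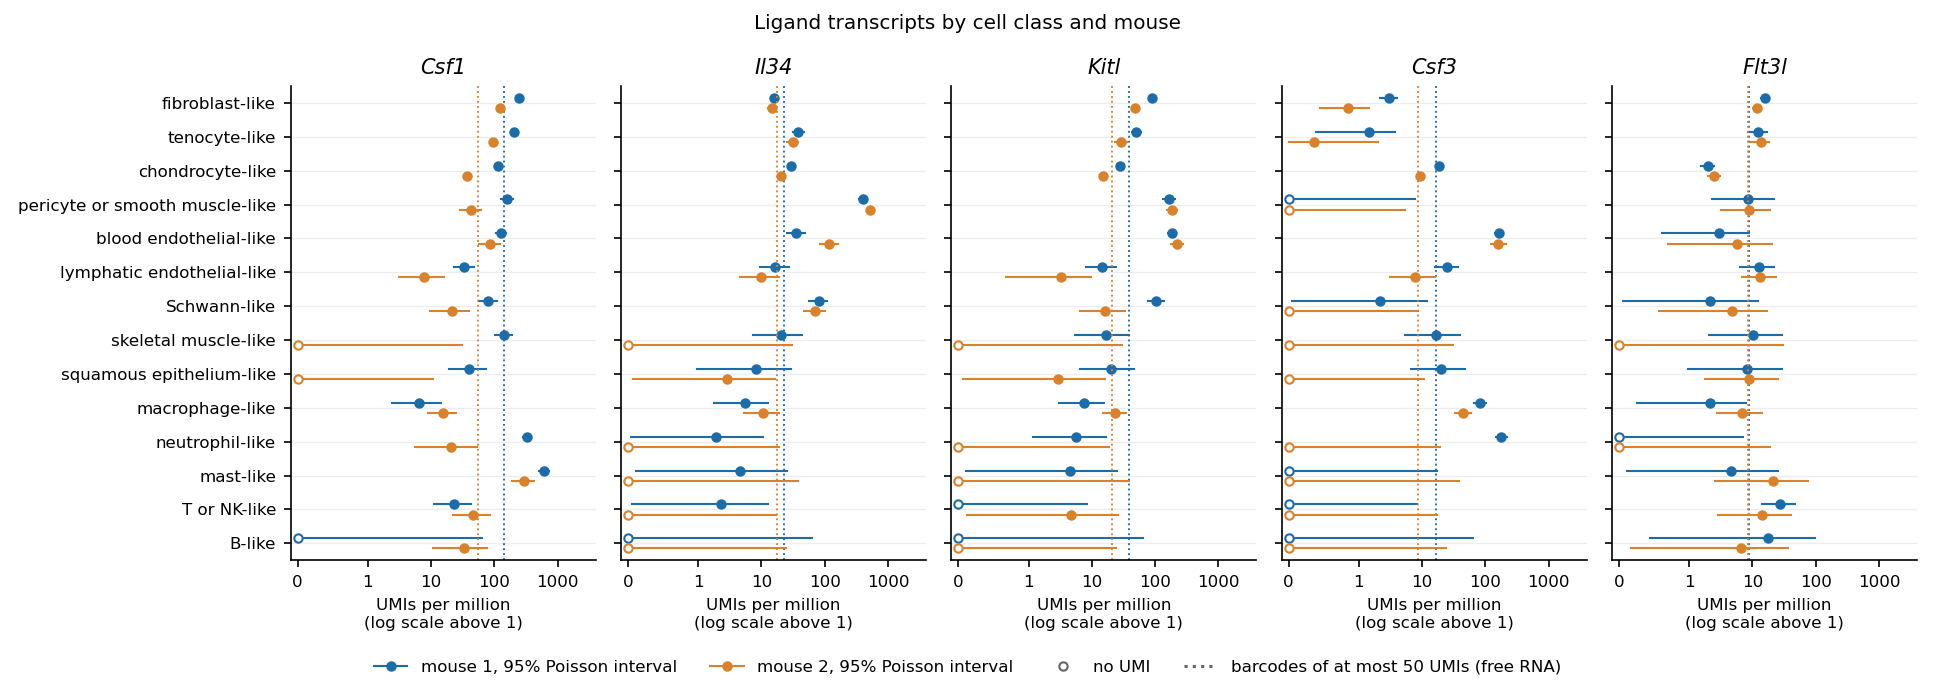
Levels of the 5 ligands in 14 cell classes, in CPM on an axis that is logarithmic above 1; points are mouse 1 and mouse 2 with 95% Poisson intervals, open points have no UMI, and dotted lines give the level in barcodes of at most 50 UMIs. Il34 stands highest in pericyte or smooth muscle-like cells (405 and 516 CPM), Kitl in blood endothelial-like cells (186 and 224 CPM), and Csf1 in mast-like cells (613 and 290.5 CPM).

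Csf1r, the receptor of both ligands, was concentrated in macrophage-like cells, a class that includes a monocyte-like cluster and clusters with dendritic cell markers beside macrophage markers. It stood there at 369 CPM (331 to 410) and 409 CPM (370 to 450), with a mean of 389 ± 28.1 (SD, n = 2 mice), and outside macrophage-like, neutrophil-like and pericyte or smooth muscle-like cells no named class had a mean over 10.8 CPM. Of the macrophage-like cells 56.6% and 55.7% had a UMI, against 1 of 135 and 0 of 65 T or NK-like cells. Thinned to 1000 UMIs the shares were 20.3% and 30.5%. Before thinning, 30 of 154 and 4 of 21 neutrophil-like cells had a UMI of Csf1r, as did 128 of 4465 and 136 of 3729 fibroblast-like cells. Neutrophil-like cells held 87.0 and 25.7 CPM. Without the early cluster, mouse 2 stood at 150.2 CPM over 11 cells. Pericyte or smooth muscle-like cells held 40.1 and 14.7 CPM, from 19 and 10 UMIs.

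Within the immune cells Csf1r formed a gradient over 4 clusters of mononuclear phagocytes. The cluster i6, led by Pf4, C1qc and C1qa, held 1025 and 1039 CPM, although mouse 1 gave only 9 of its 62 cells. The monocyte-like cluster i5, led by Vcan and Plac8, held 587 and 381 CPM. The clusters i0 and i3, both named macrophage-like, held 231 and 211 CPM and 206 and 152 CPM. Summed macrophage markers stood at 1032 and 770 CPM in i0 and at 1180 and 1223 in i3. Dendritic cell markers were lower there, at 383 and 432 CPM and at 474 and 231. For Csf1r, i6 stood above i5 in each mouse, and i5 above i0 and i3. The class thus mixes clusters of different level, and i6 cells were more frequent in mouse 2.

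**Figure D2:**
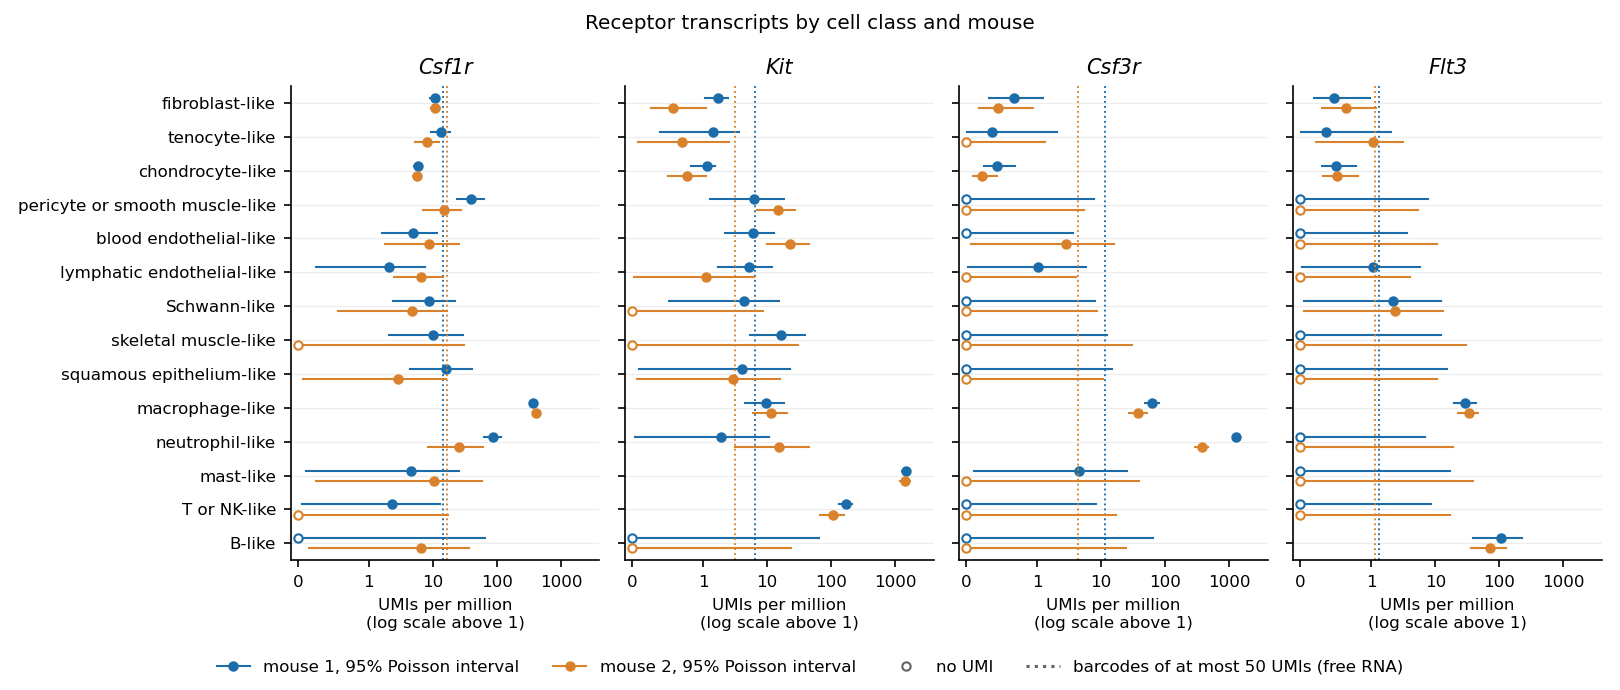
Levels of the 4 receptors in the same 14 classes, with axes, points and lines as for the ligands. Kit peaks in mast-like cells (1460 and 1432 CPM), Csf1r in macrophage-like cells (369 and 409 CPM), and Csf3r in neutrophil-like cells (1288 and 376 CPM).

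Kitl, the ligand of Kit, had its highest levels in the classes of the vessel wall. Blood endothelial-like cells held 186 CPM (161 to 215) and 224 CPM (177 to 279), and pericyte or smooth muscle-like cells 169 CPM (134 to 210) and 187 CPM (156 to 222). The intervals of these classes overlap in each mouse, so that no order between them can be read. Fibroblast-like cells followed at 91.2 and 48.5 CPM and gave 43.4% and 42.9% of the Kitl UMIs. Schwann-like cells stood at 104 CPM in mouse 1 and 16.4 CPM (7 UMIs) in mouse 2. Tenocyte-like cells held 50.6 and 29.5 CPM, and chondrocyte-like cells 27.7 and 14.9, which is under the level of free RNA. Lymphatic endothelial-like cells held 14.6 and 3.32 CPM. Mast-like cells, which bear Kit, had 1 UMI of Kitl in mouse 1 and none in mouse 2.

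Kit was concentrated in mast-like cells. They held 1460 CPM (1304 to 1629) and 1432 CPM (1203 to 1691), a mean of 1446 ± 19.8 (SD, n = 2 mice). These 65 and 31 cells gave 62.8% and 58.0% of the Kit UMIs of all cells. A UMI was found in 93.8% and 87.1% of them, against 0.515% and 0.241% of fibroblast-like cells, at median depths of 2279 and 2937 UMIs in mast-like and 2623 and 3459 in fibroblast-like cells. Thinned to 1000 UMIs the shares were 76.9% and 67.7%, against 0.179% and 0.0268%.

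A smaller Kit level was found among lymphocytes. T or NK-like cells stood at 171 and 107 CPM, from 75 and 23 UMIs. Re-clustering placed most of these in cluster i9 (37 and 16 cells), which held 460 and 465 CPM and whose leading genes include Gata3, Il9r and Ccr8. Il1rl1, the interleukin 33 receptor, stood at 583 and 512 CPM in i9, and Il7r, the interleukin 7 receptor, at 698 and 628 CPM, while its summed T or NK markers reached 283 and 326 CPM, against 5332 and 3775 in the whole class. The cluster could not be named. The cytotoxic cluster i11, led by Gzma and Prf1, held 209 CPM of Kit in mouse 1, from 4 cells, and no UMI in the 8 cells of mouse 2. Outside mast-like and T or NK-like cells no class of at least 20 cells in both mice had a mean over 14.5 CPM. Macrophage-like cells held 9.74 and 11.7 CPM, and blood endothelial-like cells (5.95 and 23.0 CPM) and pericyte or smooth muscle-like cells (6.33 and 14.7) rest on 14 and 13 UMIs. In mouse 1 both of these stood under the 6.58 CPM of free RNA, and in mouse 2 above its 3.16 CPM.

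Csf3, which encodes G-CSF, was found in fewer cells than the other ligands, 262 and 109 in all. Blood endothelial-like cells held 165 CPM (141 to 192) and 161 CPM (121 to 209), a mean of 163 ± 2.81 (SD, n = 2 mice), yet only 9.61% and 10.3% of them had a UMI, against 0.470% and 0.322% of fibroblast-like cells. This class also carried markers of other cells. Summed fibroblast markers stood at 11895 and 3704 CPM in it, chondrocyte markers at 4756 and 852, and pericyte or smooth muscle markers at 644 and 1125. Its own blood endothelial markers stood at 1869 and 4243 CPM. The part of other cells in its levels of Csf3, Il34, Kitl and Kit was not tested. Macrophage-like cells held 83.3 and 44.6 CPM. Nearly all of this stood in the monocyte-like cluster i5 (202 and 125 CPM) and, in mouse 2, in i6 (65.5 CPM), while i3 had no UMI in either mouse. Neutrophil-like cells held 180 CPM in mouse 1, from 95 UMIs in 19 cells, and no UMI in the 21 cells of mouse 2. Chondrocyte-like cells gave 62.9% and 70.1% of the Csf3 UMIs at levels of 18.3 and 9.17 CPM, close to the free RNA. Fibroblast-like cells were lower, with 2.97 and 0.842 CPM, and pericyte or smooth muscle-like, mast-like and T or NK-like cells had no UMI in either mouse, which at 3 UMIs allows up to 6.33 and 4.41 CPM in the first of these classes and 13.7 and 31.1 CPM in mast-like cells. Genes of the dissociation response stood at 9819 and 6418 CPM in blood endothelial-like and at 10248 and 10531 CPM in chondrocyte-like cells, against 6365 and 4475 in fibroblast-like cells; their part in the Csf3 levels was not tested.

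Csf3r, its receptor, was highest in neutrophil-like cells, which gave 88.4% and 56.6% of its UMIs. Neutrophil-like cells held 1288 CPM (1193 to 1389) in mouse 1 and 376 CPM (295 to 472) in mouse 2. The mice differed in the early cluster i13, whose leading genes Ngp, Prtn3 and Ltf encode granule proteins of developing neutrophils. Its 10 cells were large, with a median of 19166 UMIs, gave 82.9% of the UMIs of the class in mouse 2, and held 137 CPM of Csf3r. Without them mouse 2 stood at 1532 CPM over 11 cells, and the mature cluster i1 alone held 1686 and 1679 CPM. The cluster i7, which is high in Csf1, held 619 CPM in mouse 1. Macrophage-like cells stood at 62.7 and 37.8 CPM, again mostly in the monocyte-like cluster i5 (110 and 116 CPM). Fibroblast-like cells had 0.676 and 0.453 CPM, and Schwann-like and pericyte or smooth muscle-like cells had no UMI.

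Flt3l and Flt3 rest on few UMIs, 398 and 373 for the ligand and 63 and 79 for the receptor. Flt3l stood at 15.8 CPM (13.8 to 18.0) and 11.7 CPM (10.0 to 13.5) in fibroblast-like cells, which gave 58.8% and 48.3% of its UMIs, at 12.3 and 13.5 CPM in tenocyte-like cells and at 12.5 and 13.3 CPM in lymphatic endothelial-like cells. T or NK-like cells had the highest mean, with 27.4 and 13.96 CPM, but from 12 and 3 UMIs, and their intervals overlap those of fibroblast-like cells in both mice. Chondrocyte-like cells held 1.98 and 2.45 CPM. The protein-coding gene Gm45713 overlaps Flt3l on the same strand in an older annotation, so that the split of reads between them is uncertain. Flt3 stood at 29.2 CPM (19.2 to 42.5) and 33.0 CPM (22.9 to 46.1) in macrophage-like cells, and within them at 65.3 and 75.7 CPM in cluster i0 and 61.9 and 27.7 CPM in cluster i3, against no UMI and 1 UMI in cluster i6. The monocyte-like cluster i5 had no UMI in mouse 1 and 57.8 CPM in mouse 2, from 12 UMIs. Summed dendritic cell markers stood at 383 and 432 CPM in i0, at 474 and 231 in i3, and at 37.6 and 62.6 in i5. Macrophage markers stood at 1032 and 770 CPM in i0, at 1180 and 1223 in i3, and at 92.5 and 24.1 in i5. B-like cells had the highest Flt3 level, 104 CPM (38.3 to 227) and 71.8 CPM (35.8 to 128), but it rests on 6 and 11 UMIs in 17 and 42 cells and was not tested. The leading genes of that cluster include Siglech, a marker of plasmacytoid dendritic cells, beside Cd79a and Ighm. Re-clustering left 4 Flt3 UMIs in the cluster i10 led by Cd79a.

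**Figure D3:**
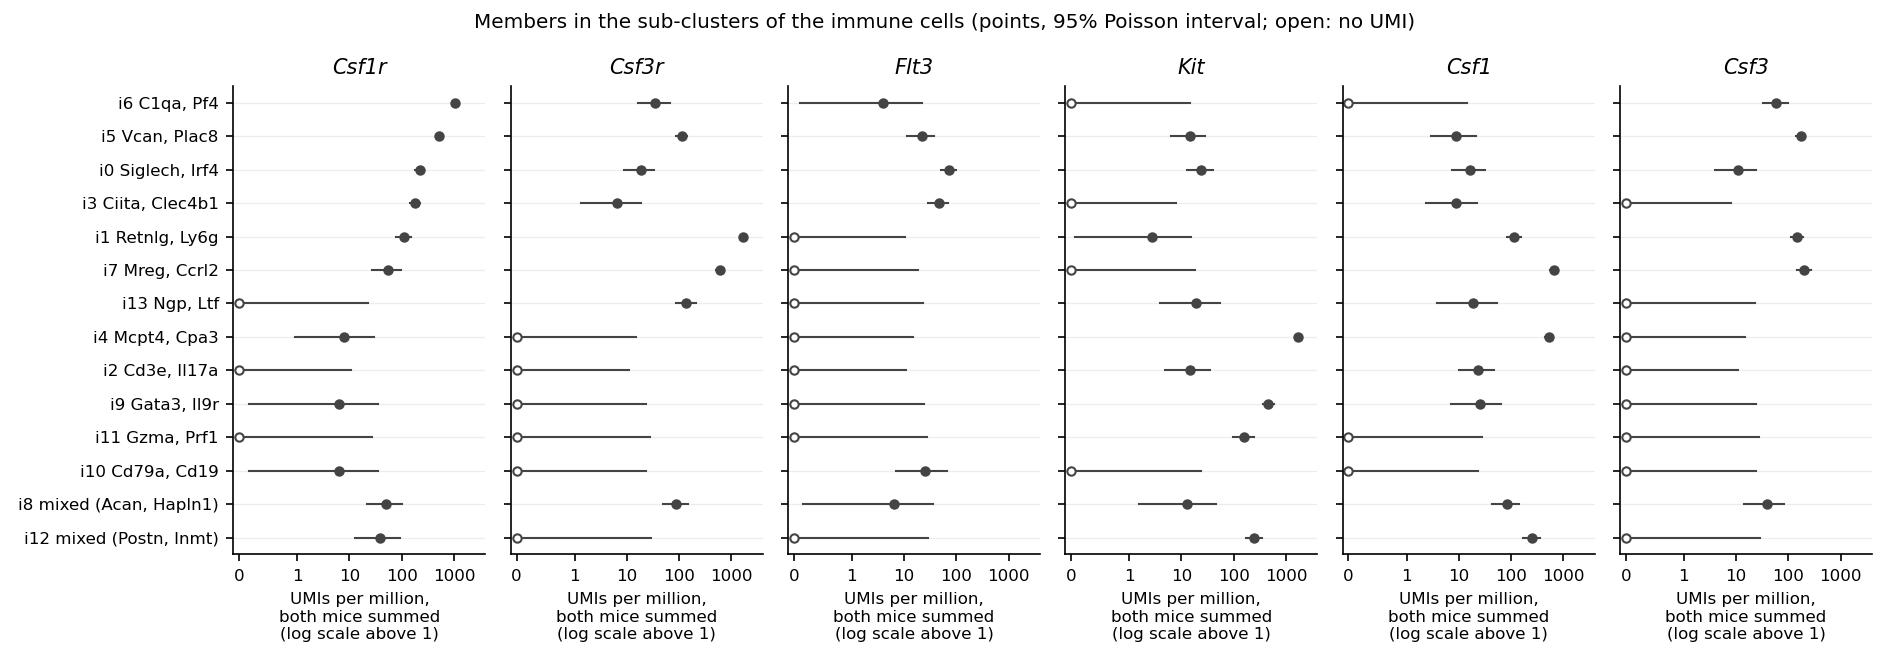
Levels of 4 receptors and 2 ligands in the 14 sub-clusters of the immune cells, with both mice summed, in CPM with 95% Poisson intervals on an axis that is logarithmic above 1; labels give leading genes. Csf1r falls from i6 to i5, i0 and i3, Csf3r is highest in i1, Kit in i4 and then i9, and Csf1 stands out in i7 and i4.

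The connective tissue classes were not uniform in their ligands. Among the 4 fibroblast-like clusters c2, led by Ifi205, Ptx3 and Cxcl1, was highest in both mice for Csf1 (407 and 224 CPM) and for Kitl (138 and 92.5 CPM). The largest cluster, c0, held 158 and 90.4 CPM of Csf1 and 54.7 and 23.9 CPM of Kitl. The cluster c7 had 105 and 70.8 CPM of Kitl, the second highest in both mice, with 129 and 100.1 CPM of Csf1. Among the 5 chondrocyte-like clusters c3, which expresses Ibsp beside Col2a1, held most Csf1 (220.1 and 64.0 CPM) and most Csf3 (34.5 and 22.0 CPM), with low Kitl (16.6 and 9.14 CPM). The cluster c9 went the other way, with 37.6 and 14.2 CPM of Csf1, 62.6 and 40.9 CPM of Il34 and 40.6 and 25.8 CPM of Kitl. The cluster c4, led by Col10a1, a gene of hypertrophic cartilage, held 73.4 and 30.0 CPM of Csf1. The list of dissociation genes stood at 9305 and 9133 CPM in c2 against 2109 and 1405 in c0, and at 12059 and 11836 CPM in c3 against 12762 and 7970 in c9; its part in these differences was not tested.

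**Figure D4:**
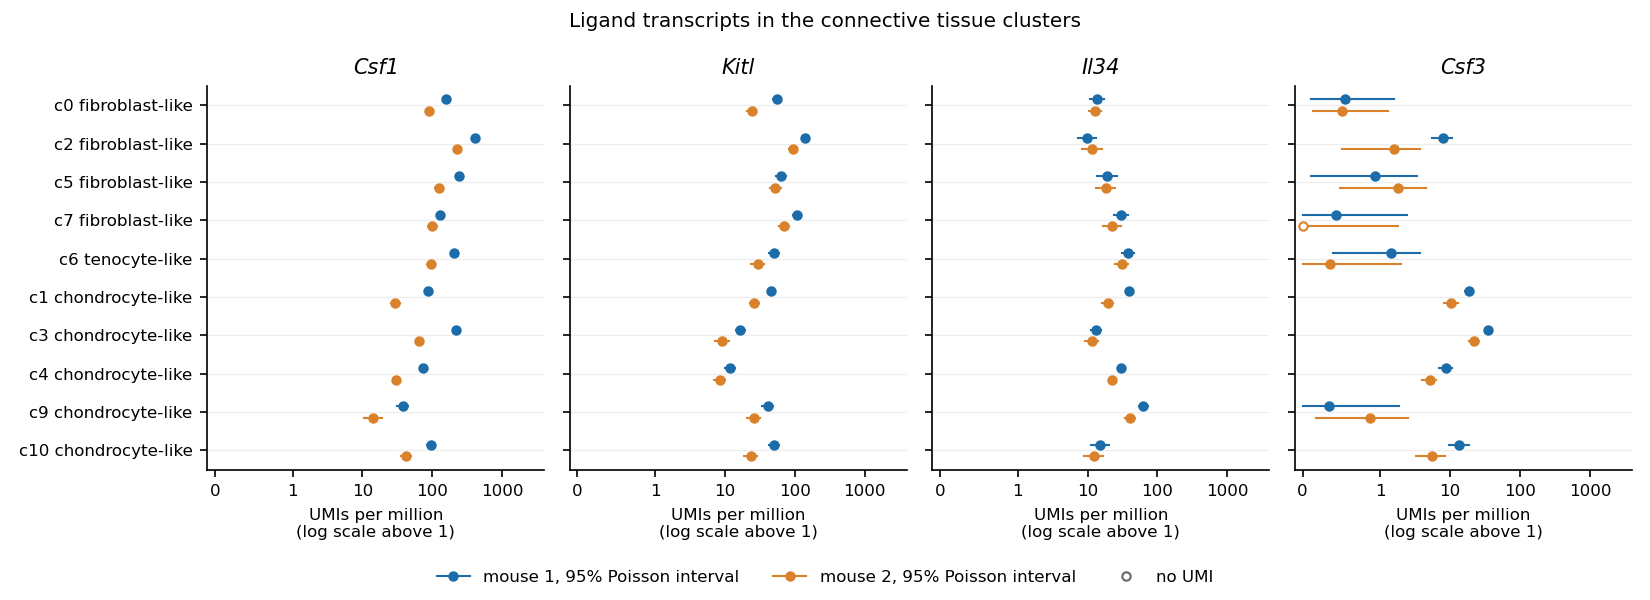
Levels of Csf1, Kitl, Il34 and Csf3 in 10 fibroblast-like, tenocyte-like and chondrocyte-like clusters, in CPM with 95% Poisson intervals for each mouse, on an axis that is logarithmic above 1. Cluster c2 is highest for Csf1 and Kitl, c9 for Il34 (62.6 and 40.9 CPM) and c3 for Csf3 (34.5 and 22.0 CPM).

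Cells with a UMI of both a ligand and its receptor were counted as a description; such counts move with how often each gene is detected, and whether the genes occur together more or less often than that was not tested. In macrophage-like cells 3 and 9 cells had a UMI of Csf1, 103 and 113 had one of Csf1r, and 1 and 2 had both. In mast-like cells 61 and 27 had a UMI of Kit, and 1 and 0 had both Kit and Kitl. In fibroblast-like cells Kitl was found in 791 and 437 cells, Kit in 23 and 9, and both in 5 and 1. Of 154 neutrophil-like cells of mouse 1, 19 had a UMI of Csf3, 124 of Csf3r and 15 of both, and in the monocyte-like cluster i5 both were found in 7 of 48 and 5 of 27 cells. In pericyte or smooth muscle-like cells 9 of the 12 and 5 of the 5 cells with a UMI of Csf1r also had one of Il34, and in neutrophil-like cells of mouse 1 10 of the 30 cells with Csf1r also had Csf1. The balance of the ligands of Csf1r also turned between classes. In pericyte or smooth muscle-like cells there were 0.396 and 0.0826 UMIs of Csf1 per UMI of Il34, against 15.5 and 8.40 in fibroblast-like cells. Both ligands were found in 14.4% and 6.83% of pericyte or smooth muscle-like cells.

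Of the 8 planned comparisons between classes 7 could be made with edgeR's quasi-likelihood test on UMI sums per mouse and class. The mouse was a block, and p-values were adjusted after Benjamini and Hochberg over 6684 genes held out of the clustering. All 9 members passed the filter on low counts. Each comparison uses 2 mice. A change is weighed against the spread left after the mouse block, taken over all 13 classes and not only the 2 compared. The comparison of monocyte-like with macrophage-like cells could not be made, as they formed 1 class.

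Chondrocyte-like cells were set against fibroblast-like cells, as these were the most numerous classes. Of the 9 members 1 was higher and 2 were lower at an adjusted p under 0.05, against 12.8% and 11.1% of all genes tested (23.9% in either direction). Csf3 was higher by 3.15 ± 0.62 (SE, log2; edgeR adjusted p = 0.000383). Flt3l was lower, with a log2 change of -2.46 ± 0.41 (edgeR adjusted p = 3.75e-05), and Kitl had -1.54 ± 0.50 (edgeR adjusted p = 0.0217). The calls of Csf3 and Kitl were lost without the block (edgeR adjusted p = 0.0512 for Csf3), and that of Kitl also with DESeq2. Csf1 had -1.28 (edgeR adjusted p = 0.211) and Il34 0.86 (edgeR adjusted p = 0.156), and neither was called.

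In blood endothelial-like against fibroblast-like cells 3 members were higher and 1 was lower, where 8.38% and 4.67% of all genes were called. The blood endothelial-like class also carried markers of other cells, as given above, and their part in these changes was not tested. Csf3 rose by 6.44 ± 0.70 (SE, log2; edgeR adjusted p = 3.64e-07), Kit by 3.16 ± 0.76 (edgeR adjusted p = 0.00433) and Il34 by 1.99 ± 0.47 (edgeR adjusted p = 0.00392). Kit rests on 14 endothelial UMIs, and its log2 difference was 1.37 in mouse 1 alone and 3.92 in mouse 2 alone; for Il34 these values were 1.12 and 2.91. Flt3l had -2.03 ± 0.69 (edgeR adjusted p = 0.0495), a call that was lost under 5 of 12 alternatives. Kitl had 1.43 ± 0.51 (edgeR adjusted p = 0.0659) and was called under 10 of 14 alternatives. Lymphatic endothelial-like cells, set against blood endothelial-like cells, were lower in 4 members and higher in 0, where 9.78% of all genes were called (7.06% lower and 2.72% higher). Kitl had -4.62 ± 0.67 (SE, log2; edgeR adjusted p = 4.55e-05), Csf3 -3.55 ± 0.69 (edgeR adjusted p = 0.00148), Il34 -2.42 ± 0.55 (edgeR adjusted p = 0.00451) and Csf1 -2.61 ± 0.84 (edgeR adjusted p = 0.0475). The Csf1 call was lost under 5 of 14 alternatives. The Csf3 call was lost without the block (edgeR adjusted p = 0.0818).

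In pericyte or smooth muscle-like against fibroblast-like cells 2 members were higher and 0 lower, where 6.10% and 4.53% of genes were called (10.6% in all). Il34 rose by 4.62 ± 0.48 (SE, log2; edgeR adjusted p = 6.24e-08), with 4.59 and 5.03 in mouse 1 and mouse 2 alone. Kit rose by 3.04 ± 0.76 (edgeR adjusted p = 0.00666), from 13 UMIs, with 1.45 in mouse 1 alone and 3.31 in mouse 2 alone. Kitl had 1.17 (edgeR adjusted p = 0.164) and was not called. Between the mural and the blood endothelial class, Il34 was the higher in the mural class and Csf3 in the endothelial class in both mice, and Kitl was high in both classes; they were not tested against each other.

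Macrophage-like cells, the receptor side, were set against fibroblast-like cells, a connective tissue class that holds several of the ligands. Of the members 5 were higher and 2 lower, where 12.4% and 14.9% of genes were called (27.4% in all). Csf1r rose by 5.26 ± 0.51 (SE, log2; edgeR adjusted p = 4.77e-09), Csf3r by 6.52 ± 0.67 (edgeR adjusted p = 6.72e-08), Flt3 by 5.80 ± 0.76 (edgeR adjusted p = 3.86e-06), Csf3 by 5.27 ± 0.68 (edgeR adjusted p = 1.76e-06) and Kit by 3.35 ± 0.68 (edgeR adjusted p = 0.000306). The Kit call rests on 4 of 182 and 4 of 203 macrophage-like cells with a UMI. Csf1 had -3.74 ± 0.86 (edgeR adjusted p = 0.00136) and Kitl -1.92 ± 0.59 (edgeR adjusted p = 0.0149). Without the mixed cluster i8, which carries cartilage genes such as Acan and Hapln1, the Csf1 change was -4.88. The Kitl call was lost with DESeq2 and at clustering resolution 2.

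Mast-like against macrophage-like cells had 2 members higher and 4 lower, where 6.25% and 7.23% of genes were called (13.5% in all). Kit rose by 6.75 ± 0.64 (SE, log2; edgeR adjusted p = 1.81e-08) and Csf1 by 4.74 ± 0.91 (edgeR adjusted p = 0.000723), or by 5.77 without the mixed clusters. Csf1r had -6.28 ± 0.82 (edgeR adjusted p = 4.01e-06) and Csf3r -4.55 ± 1.17 (edgeR adjusted p = 0.0110), the latter lost under 3 of 12 alternatives. Csf3 and Flt3 had no UMI in mast-like cells of the main fit. At a floor of 3 UMIs over the group this puts them at least 6.61-fold and at least 3.28-fold lower there. The call of Csf3 was lost under 4 of 12 alternatives, and its log2 change was as small as -0.76 among the 12. The call of Flt3 was lost at resolution 2. In neutrophil-like against macrophage-like cells 2 members were higher and 2 lower, where 6.34% and 5.45% of genes were called (11.8% in all). Csf3r rose by 4.34 ± 0.57 (SE, log2; edgeR adjusted p = 1.95e-05), and Csf1r had -2.20 ± 0.50 (edgeR adjusted p = 0.00370). Csf1 rose by 4.04 ± 0.90 (edgeR adjusted p = 0.00366), but the difference was 5.48 in mouse 1 alone and 0.39 in mouse 2 alone. Flt3 had no UMI in neutrophil-like cells and was at least 7.52-fold lower. These 4 calls were lost when only these classes entered the fit, and without the early and mixed clusters Csf3r had 4.82 and Csf1 5.35.

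**Figure D5:**
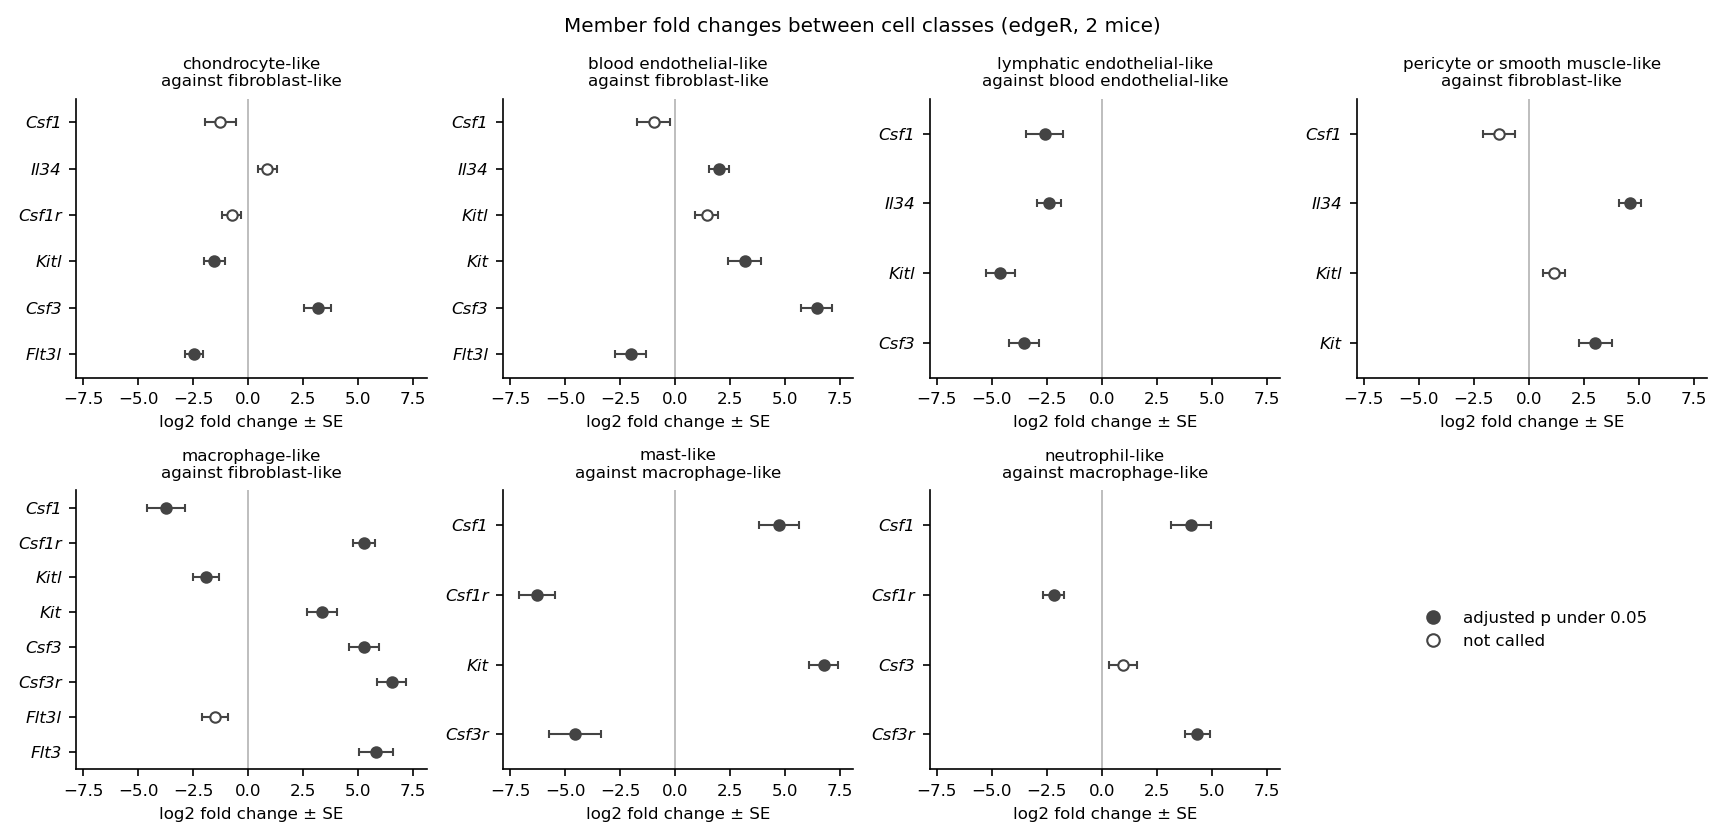
Log2 fold changes of the members between classes with their standard errors, from edgeR on 26 sums of 2 mice. Filled points have an adjusted p under 0.05. Members with no UMI in one class are left out, as are changes called neither here nor under any alternative setting. Il34 in pericyte or smooth muscle-like cells (4.62), Csf3 in blood endothelial-like cells (6.44) and Kit in mast-like cells (6.75) lie farthest to the right in their comparisons.

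Other genes of the same pathways were described from lists. Among the signal transducers downstream of these receptors, in macrophage-like against fibroblast-like cells 17 of 27 were higher and 0 lower, where 12.4% and 14.9% of all genes were called, with a median log2 change of 3.79 against -0.07 over all genes. Tyrobp, an adaptor of myeloid receptors, stood at 9.20, the kinase Fgr at 7.14, and Pik3cg, a phosphoinositide 3-kinase subunit of leukocytes, at 7.67. Of the other haematopoietic receptors 8 of 15 tested were higher and 2 lower, with a median of 3.35. They include Csf2rb and Csf2ra, the receptor chains of GM-CSF, at 9.04 and 6.87, and the chemokine receptor Ccr2 at 8.82. Among the lineage transcription factors 7 of 15 tested were higher and 1 lower, with Spi1, which directs myeloid fate, at 8.69 and Irf8 at 2.98.

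Of the other haematopoietic cytokines 1 of 14 tested was higher in macrophage-like than in fibroblast-like cells, Il15 at 1.87, and 2 were lower, Cxcl12 at -5.11 and Il33 at -4.38; these shares are near the 12.4% and 14.9% of all genes. Against fibroblast-like cells, chondrocyte-like cells had 3 of 14 higher and 4 lower, where 12.8% and 11.1% of all genes were called. Cxcl12, the ligand of Cxcr4, had -5.22 there and Ccl2, the ligand of Ccr2, -4.73, while Lif had 4.70 and reached 835 and 389 CPM in chondrocyte-like cells. Lymphatic against blood endothelial-like cells had 1 of 14 higher, Il7 at 2.53 (86.5 and 95.1 against 21.8 and 8.61 CPM), and 6 lower, with Cxcl12 at -5.46, where 2.72% and 7.06% of all genes were called.

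Mast-like cells, set against macrophage-like cells, had 2 of the 15 other receptors higher and 3 lower, and 4 of 15 lineage factors higher and 6 lower, where 6.25% of all genes were higher and 7.23% lower. Il1rl1 was higher by 6.25 on the log2 scale, with 1693 and 1836 CPM, and Gata2, a mast cell factor, by 8.41, with 1094 and 1079 CPM. The cytokine Il13 stood at 348 and 280.1 CPM and had no UMI in macrophage-like cells. Spi1 had -3.82. Of the 10 dissociation genes 6 were higher and 0 lower in this comparison, with a median of 2.01 against -0.13 over all genes; in the other 6 comparisons 2 at most were called. In neutrophil-like against macrophage-like cells 0 of 15 lineage factors were higher and 7 lower, where 6.34% and 5.45% of all genes were called. Cebpe, a factor of granule formation, stood at 484 CPM in mouse 2 and 1.89 in mouse 1, and at 584 CPM in the early cluster.

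Genes whose pattern was most like that of a member were found by Pearson correlation of log2 levels over 23 clusters among 7022 held-out genes; the clusters share libraries, and the values are descriptions. Csf3r was most like Clec5a (r = 0.999) and Trem3 (0.998), Flt3 like Slamf9 (0.993), Kit like Cd200r4 (0.962), Csf1r like Gm6377 (0.925), Il34 like Gm49291 (0.900), Csf1 like Vegfa (0.861), Kitl like Ppfia2 (0.844), Flt3l like Hgf (0.818) and Csf3 like Trim30a (0.812). Between members the closest pairs were Csf1r with Flt3 (r = 0.843) and Il34 with Kitl (0.748). No ligand followed its own receptor closely: r was -0.23 for Csf1 and Csf1r, 0.00 for Il34 and Csf1r, -0.39 for Kitl and Kit, -0.12 for Flt3l and Flt3, and 0.58 for Csf3 and Csf3r.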

How the data were processed

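Single-cell RNA was measured in 2 mice, 1 library each. The deposited matrices hold whole-number counts per gene and barcode, taken here as UMI counts; STAR (version not given in the sources used) and Cell Ranger 7.0.0 with the build GRCm39 are named, without their roles, per the submitters' processing notes. Every barcode of the tables was read, and no cell annotation was used.

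Barcodes with at least 1000 UMIs, 300 genes and at most 15% mitochondrial UMIs were kept. Scrublet called 0 doublets in both libraries, under the accepted 0.5%, so the highest scores were removed at an assumed rate of 0.8% per 1000 cells (1599 and 750 barcodes). The 9 genes, the gene lists and other genes (29462 in all) were held out of the clustering, which used 2000 variable genes of 27491, 30 principal components, 15 neighbours and Leiden resolution 1 (scanpy 1.11.5). Clusters were named from 32 lists of 5 markers, which needed 3 markers in at least 10% of cells. Immune clusters were clustered again (i0 to i13). Classes of one mouse come from the same animal, so the mouse was the block.

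Counts were summed per mouse and class for 13 classes with at least 20 cells in each mouse (26 sums, 12 residual degrees of freedom) and tested with edgeR 4.0.16 in R 4.3.3 (TMM, low-count filter, robust quasi-likelihood fit; 12853 genes fitted, adjusted p threshold 0.05). On simulated counts for macrophage-like against fibroblast-like cells (6316 genes) the test recovered 86% of log2 changes of 2 and 100% of log2 changes of 3. The changed genes were drawn from those above 20 CPM in fibroblast-like cells. Of the members only Csf1 and Kitl stood above that level there, so these rates do not cover the other members. Alternatives were other filters, resolutions, normalizations, DESeq2 1.42.0 and each mouse alone. Leaving out shared barcodes, and leaving out mixed and early immune clusters, were chosen after seeing the data. The fit without mixed and early clusters set no minimum of 20 cells per class and mouse. The members and lists were chosen with earlier results of these data known. All members are named; of each list at most the 4 largest called changes are named, plus genes paired with a member by known biology. Overlapping genes come from a GRCm38 annotation. A floor is 3 UMIs. The mice are separate animals, and no test covers variation beyond them.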

Additional observations from a re-analysis of the deposited data

How the results depend on the processing

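Of 30 member changes called, 17 were called under every alternative run for them and 0 reversed. Without the replicate block the calls of Csf3 and Kitl (chondrocyte-like against fibroblast-like), Flt3l (blood endothelial-like), Csf1 and Csf3 (lymphatic) and Csf3 and Csf3r (mast-like) were lost; the pairing changed no other call of a member. When only the 2 classes compared were fitted, 5994 genes were called for chondrocyte-like (1598 before), 1354 for blood endothelial-like (872), 2066 for pericyte or smooth muscle-like (711), 3246 for macrophage-like (1829) and 97 for neutrophil-like cells (788), and Csf3 in neutrophil-like cells had -0.20 in place of 0.97, neither called. The pericyte or smooth muscle-like count was 1133 at 2000 UMIs and 1081 at a mitochondrial limit of 25%. The chondrocyte-like count was 2670 with no filter on low counts, the lymphatic count 351 at resolution 2 (654 before), and the neutrophil-like count 1491 without mixed and early clusters. Without these clusters the neutrophil-like class of mouse 2 held 11 cells, under the minimum of 20, which was not applied in that fit. The 2-class fits use fewer samples. The cause of these differences in counts was not tested for any setting. In single mice, with no test, genes past 2-fold numbered 1613 to 2329 for blood endothelial-like, 1880 to 2399 for lymphatic, 1838 to 1862 for pericyte or smooth muscle-like, 3547 to 3758 for mast-like (901 called) and 3316 to 4150 for neutrophil-like cells. Shares of cells depend on depth: 4 of 36 stayed within their interval after thinning. At resolution 2, where monocyte-like cells formed a class, Csf3r was higher in them than in macrophage-like cells by 2.55 on the log2 scale (edgeR adjusted p = 0.0190). Macrophage-like, mast-like and neutrophil-like comparisons were not run at resolution 0.5, where no cluster was named macrophage-like. Mast-like and neutrophil-like ones at 2000 UMIs, and neutrophil-like ones also at a mitochondrial limit of 25% and without shared barcodes, were not run because a class had under 20 cells in a mouse. Flt3 and Flt3l rest on few UMIs, and the neutrophil-like class of mouse 2 on 21 cells.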

Other observations

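Cluster c19, which could not be named and is led by Krtdap, Slurp1, Ccn3 and Sbsn, held Csf1 at 561 and 169 CPM in mouse 1 and mouse 2 (84 and 61 cells), next to mast-like cells among the highest levels of the gene. It had no UMI of Csf3, and its Kitl stood at 5.52 and 30.0 CPM. Cluster c21, also unnamed and led by Angpt4 and Coch, held Kitl at 137 and 292 CPM, the latter over 8 cells.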
